A study of Mus musculus with 6 samples.

Results

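The enzymes that join a fatty acid to a sphingoid base, hydroxylate either chain and add the first sugar were measured in newborn mouse epidermis with and without an active aryl hydrocarbon receptor (AhR). The set holds 10 genes chosen by name, the 6 ceramide synthases Cers1 to Cers6, the desaturases Degs1 and Degs2, the fatty acid 2-hydroxylase Fa2h and the glucosylceramide synthase Ugcg. These genes were chosen with earlier results of these data known. Probes were assigned through RefSeq accessions, and 8 of the 10 genes had 1 or more of them (10 probes in all, with a pair each for Cers4 and Ugcg), out of 18217 genes with a named probe. Cers1 and Cers3 had no probe by this rule and were not analysed here. All 8 measured genes were well above background on at least 3 of 6 arrays and so were among the 12824 genes tested, but Fa2h passed that filter through the WT arrays alone.

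The tested animals were 3 AhRCA mice, in which the keratin 14 promoter, active in basal keratinocytes, drives a constitutively active AhR on a mixed strain background. The comparison animals were 3 wild-type (WT) littermates, 1 from each AhRCA litter. All were sampled at postnatal day 0, total RNA of the epidermis was labelled with Cy3, and each mouse had its own 1-colour Agilent array. AhR is a ligand-activated transcription factor, best known as the dioxin receptor.

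Ceramides are built in the endoplasmic reticulum when a ceramide synthase links an acyl-CoA to a sphingoid base, and each synthase prefers certain chain lengths. Desaturases then turn dihydroceramide into ceramide or phytoceramide, Fa2h places a hydroxyl group on the fatty acid, and Ugcg adds glucose, which is how keratinocytes load ceramides into lamellar bodies. After secretion these lipids form the water barrier of the cornified layer. In mouse skin hydroxylated sphingolipids are also known from sebaceous glands and hair follicles.

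The share of spots well above background lay between 56.2% and 61.3% per array, 0 were saturated, and precision was limited by the number of arrays, 3 per genotype. The check of AhR activity was clear, with log2 fold changes of 7.07 ± 0.58 (SE) for Cyp1a1, 5.34 ± 0.14 for Cyp1b1 and 5.91 ± 0.35 for Ahrr (adjusted p between 5.62e-05 and 0.00470, limma). After normexp correction of the background they were 6.24, 4.87 and 4.30, and the Ahrr signal of 1 of the 3 WT arrays was not well above background. The keratinocyte markers were present as the tissue label states: 9 of 10 were tested, including Krt5, Krt14, Krt1 and Krt10, and 0 of them changed (0 at an unadjusted p under 0.05). The labels do not name the litter of a mouse. Mice with the same replicate number were taken as litter pairs, which is an inference described with the processing. Litter pairs 1 and 2 lay on slide 1 and pair 3 on slide 2. Xist, which coats the inactive X chromosome in females, had normalized log2 intensities between 4.43 and 4.66 on the arrays of pairs 1 and 2 and of -7.14 and -4.20 in AhRCA 3 and WT 3, so that slide, pair 3 and sex coincided. Throughout, a normalized log2 intensity is the log2 signal minus the 75th percentile of its array, and levels of different probes are not comparable with each other.

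Fa2h and Cers4 were lower in AhRCA epidermis, and the other 6 measured genes did not pass the test. At a Benjamini-Hochberg adjusted p under 0.05, 2 of the 8 genes fell and 0 rose (limma), beside 1.65% of all tested genes that fell, 0.53% that rose and 2.18% that changed in either direction. The same 2 genes were the only ones of the 8 whose AhRCA and WT arrays did not overlap, a pattern found in 16.4% of all tested genes. The median log2 fold change of the 4 measured ceramide synthases was -0.14, and that of all tested genes was 0.00 (0.0013 before rounding). In whole tissue, fewer cells of a type and less RNA per cell cannot be told apart.

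**Figure D1:**
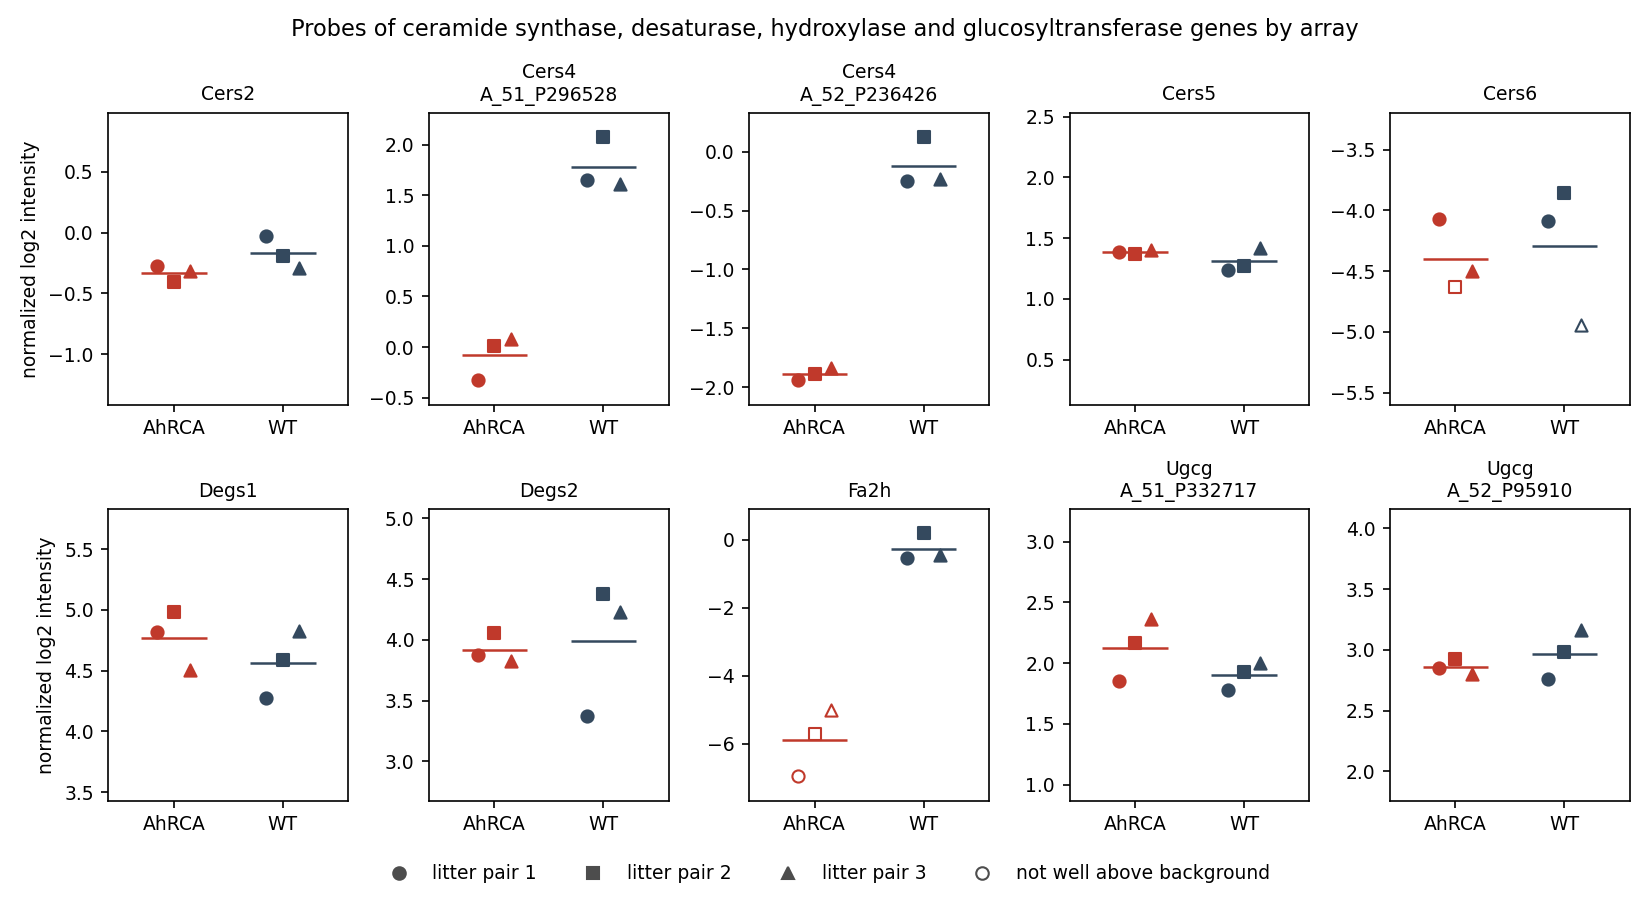
Normalized log2 intensity (vertical axis, scaled separately in each panel) of the 10 probes on the 3 AhRCA (red) and 3 WT (dark) arrays. The marker shape gives the litter pair as inferred from the replicate number. Horizontal lines are group means, and open symbols are spots that were not well above background. The groups separate in the panels of Fa2h and of both Cers4 probes, and all 3 AhRCA spots of Fa2h are open.

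Fa2h, the enzyme that 2-hydroxylates fatty acids before they enter ceramides and galactolipids, lies on chromosome 8 (111345138 to 111393821, GRCm38.p6). Its single probe gave processed intensities of 5.48, 11.9 and 23.6 in AhRCA 1 to 3, with scanner error estimates of 5.47, 5.79 and 5.77. In WT 1 to 3 the intensities were 499, 769 and 521. All AhRCA signals were therefore at or near background and all WT signals clearly above it, in each of the 3 litters. Since 0 of the 3 AhRCA spots was well above background, the difference is given as a bound. With the scanner's background subtraction Fa2h was at least 25.3-fold lower in AhRCA, or -4.66 on the log2 scale. This bound leaves out the spread between arrays, and the upper end of the fitted interval was 21.9-fold lower. The normalized log2 values averaged -5.89 ± 0.99 in AhRCA and -0.27 ± 0.40 in WT (SD, n = 3 each). The fitted log2 fold change of -5.63 ± 0.49 (SE, limma, adjusted p = 0.00546) rests on AhRCA signals that were not well above background. After normexp correction of the background, which compresses dim signals, the fitted difference was -2.91 (adjusted p = 0.000877), smaller than that bound. The size of the difference therefore depends on how background is treated, and the direction was the same.

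Within slide 1 the fitted log2 fold change of Fa2h was -6.17 (limma, adjusted p = 0.0422, 2 mice per genotype). The filter on dim probes was not redone for that fit, and only the WT spots of Fa2h were well above background. On slide 2, where each genotype has 1 mouse and no test is possible, the difference was -4.54. The difference between slides was 1.62 on the log2 scale and did not pass (interaction, adjusted p = 0.574). That difference rests on the same dim AhRCA spots.

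Cers4 is a ceramide synthase of long acyl chains that in mouse skin is known from hair follicles and sebaceous glands, and its gene also lies on chromosome 8 (4492818 to 4529603). Its brighter probe stood at normalized log2 intensities of -0.33, 0.01 and 0.08 in AhRCA 1 to 3, against 1.65, 2.07 and 1.61 in WT 1 to 3. The dimmer probe stood at -1.94, -1.89 and -1.84 in AhRCA and at -0.25, 0.12 and -0.23 in WT. On both probes the groups were separated by a wide gap, and every spot was well above background. By the brighter probe, which stands for the gene, Cers4 fell by 1.86 on the log2 scale (SE 0.18, n = 3 per group), which is 3.63-fold lower in AhRCA (limma, adjusted p = 0.00758). The 95% interval of this log2 fold change ran between -2.28 and -1.44. When every probe was tested on its own, the dimmer probe had a log2 fold change of -1.77 ± 0.14 (adjusted p = 0.00796) and the brighter one an adjusted p of 0.0149, so that the probes differed from each other by less than their errors. Both were among the 1.1% of 24005 probes that changed.

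The fall of Cers4 was -1.98, -2.06 and -1.53 in litter pairs 1, 2 and 3. Within slide 1 the log2 fold change was -2.02 (limma, adjusted p = 0.0494). The difference between slides was 0.49 and did not pass (adjusted p = 0.638). Of all tested genes 0.483%, 62 of 12824 with Cers4 among them, fell by at least as much as Cers4 and passed the test. The cut is the value of Cers4 itself, so this share is a rank and no test. Fa2h and Cers4 both kept their call in every leave-one-out fit, with adjusted p of at most 0.0326 and 0.0411, and with the replicate block (0.0114 and 0.0115), under which 3.88% of all genes changed. With the slide as a block, under which 4.2% of all genes changed, they kept it too. The filter on dim probes was not redone in the leave-one-out fits or within slide 1. Fa2h met it through the 3 WT arrays alone and would not meet it without a WT array or within slide 1. Its calls in those fits therefore do not show that it is stable.

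A start of Cers4 is shown because it is the gene of this family that changed and was measured on all arrays, beside those of Degs1 and Ugcg, which did not pass the test. Each line gives the 250 bases before 1 transcript start in RefSeq's table (GRCm38.p6), 5′ to 3′ along the gene's strand, with capitals where GCGTG, the core of the element that AhR binds, or its reverse complement CACGC occurs.
Cers4: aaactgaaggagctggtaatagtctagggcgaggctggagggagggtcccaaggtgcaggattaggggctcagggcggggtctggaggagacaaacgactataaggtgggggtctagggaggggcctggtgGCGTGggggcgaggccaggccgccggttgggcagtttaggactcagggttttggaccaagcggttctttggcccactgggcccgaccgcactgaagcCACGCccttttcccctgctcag
Degs1: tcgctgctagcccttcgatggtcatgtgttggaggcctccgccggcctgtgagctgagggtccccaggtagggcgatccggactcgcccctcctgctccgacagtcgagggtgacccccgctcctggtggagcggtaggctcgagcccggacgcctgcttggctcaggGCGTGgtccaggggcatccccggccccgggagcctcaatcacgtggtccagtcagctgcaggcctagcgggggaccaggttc
Ugcg: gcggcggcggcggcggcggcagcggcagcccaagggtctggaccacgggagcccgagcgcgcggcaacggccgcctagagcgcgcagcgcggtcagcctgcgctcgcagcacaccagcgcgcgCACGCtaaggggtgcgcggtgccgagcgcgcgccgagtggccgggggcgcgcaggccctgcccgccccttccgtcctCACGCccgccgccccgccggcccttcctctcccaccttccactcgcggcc
The windows are chr8:4493155-4493404 on the plus strand for Cers4, chr1:182282196-182282445 on the minus strand for Degs1 and chr4:59189300-59189549 on the plus strand for Ugcg. The starts that these windows precede lie 587, 659 and 43 bases inside the outer ends annotated for Cers4, Degs1 and Ugcg, so the windows of Cers4 and Degs1 lie within the annotated gene. The core occurred at 2 places in the Cers4 window, 1 in that of Degs1 and 2 in that of Ugcg. Of 7 measured members with a window (all but Fa2h), 5 held the core on either strand, also Cers5 and Cers6, while Cers2 and Degs2 held none. Of all 32851 RefSeq windows of this length 28.2% held it, and of the tested genes with a window 48.9% did. The core was thus present in the gene that fell and in 4 that did not pass, and a match of these letters is a description of the window, not a binding site.

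Among the other ceramide synthases, Cers2 (chromosome 3, 95314771 to 95323599), the broadly expressed synthase of very long chains, stood at -0.27, -0.41 and -0.32 in AhRCA, against -0.02, -0.19 and -0.29 in WT. The groups overlap, and the log2 fold change of -0.16 ± 0.12 (SE) did not pass (limma, adjusted p = 0.798), with a 95% interval of -0.44 to 0.11. A fall of Cers2 by more than 1.36-fold lies outside that interval.

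Cers5 (chromosome 15, 99735592 to 99772515), a synthase that prefers palmitoyl chains, was the most even of the set. It stood at 1.38, 1.37 and 1.40 in AhRCA, against 1.24, 1.27 and 1.42 in WT, with a log2 fold change of 0.07 ± 0.10 (limma, adjusted p = 0.987). The 95% interval of -0.17 to 0.32 leaves room for at most 1.13-fold lower or 1.25-fold higher in AhRCA.

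Cers6 (chromosome 2, 68861145 to 69114284), the other palmitoyl-preferring synthase, was dim and well above background on 2 of 3 arrays of each genotype. Its values were -4.07, -4.63 and -4.50 in AhRCA, against -4.08, -3.86 and -4.94 in WT, with full overlap. The log2 fold change of -0.11 ± 0.30 (limma, adjusted p = 0.999) had a 95% interval of -0.83 to 0.62, which allows up to 1.78-fold lower or 1.53-fold higher. Among the 4 measured synthases Cers4 was thus the only one to pass the test, and its 95% interval does not reach those of Cers2, Cers5 and Cers6.

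**Figure D2:**
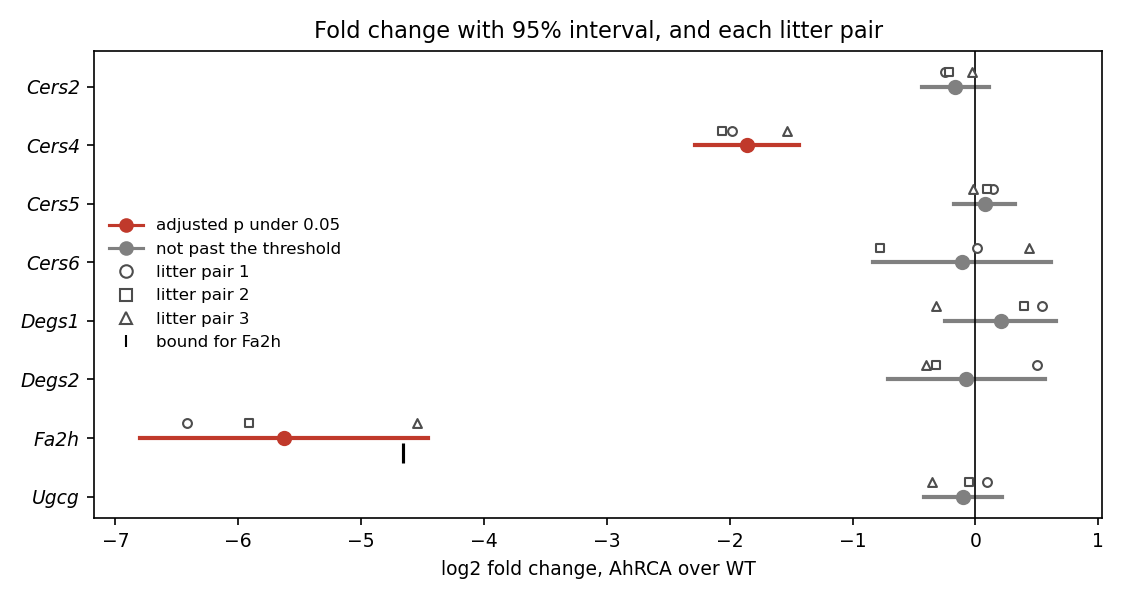
Log2 fold change of AhRCA over WT (horizontal axis) for the 8 measured genes: filled points and bars are the limma estimate with its 95% interval, small open symbols the difference within each litter pair, and the short vertical tick the bound for Fa2h, whose AhRCA signals were not well above background. The intervals of Fa2h and Cers4 lie left of 0 and those of the other 6 genes include 0.

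Degs1 (chromosome 1, 182275964 to 182282854), the desaturase that makes ceramide from dihydroceramide, was bright on every array. It stood at 4.82, 4.98 and 4.50 in AhRCA, against 4.28, 4.59 and 4.82 in WT, and the groups overlapped. Its log2 fold change was 0.21 ± 0.19 (SE) and did not pass (limma, adjusted p = 0.908), with a 95% interval of -0.25 to 0.66. AhRCA was higher in litter pairs 1 and 2 (0.54 and 0.40) and lower in pair 3 (-0.32). The difference between slides of -0.79 had an unadjusted p of 0.0320 and did not pass after adjustment (0.492, limma interaction). For that interaction 9.98% of all genes had an unadjusted p under 0.05, and 1 of 12822 (0.0078%) passed. Slide, litter and sex cannot be told apart here.

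Degs2 (chromosome 12, 108686792 to 108702306), which both desaturates and hydroxylates the sphingoid base and so makes the phytoceramides of differentiated keratinocytes, stood at 3.87, 4.06 and 3.82 in AhRCA, against 3.37, 4.38 and 4.22 in WT. The AhRCA values lay inside the WT range. The log2 fold change was -0.07 ± 0.27 (limma, adjusted p = 0.999). Its 95% interval of -0.71 to 0.56 is wide because WT 1 lay below the other WT arrays, and allows up to 1.64-fold lower or 1.48-fold higher.

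Ugcg (chromosome 4, 59189507 to 59222833), the glucosyltransferase that makes glucosylceramide and is needed for the mouse epidermal barrier, was measured by a pair of bright probes. The brighter stood at 2.85, 2.93 and 2.80 in AhRCA, against 2.76, 2.98 and 3.16 in WT, with a log2 fold change of -0.10 ± 0.13 (limma, adjusted p = 0.979). Its 95% interval of -0.42 to 0.21 covers at most 1.34-fold lower or 1.16-fold higher. The other probe had values of 1.85, 2.17 and 2.36 in AhRCA, against 1.77, 1.93 and 2.0 in WT. Tested on its own, that probe had a log2 fold change of 0.23 ± 0.16 (adjusted p = 0.802). The probes of Ugcg thus differed in sign, and neither passed.

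The rest of the pathway was read from 55 further genes of sphingolipid metabolism, of which 54 had a probe and 49 were tested. Of these, 1 fell and 0 rose (limma), which is close to the 2.18% of all tested genes, and 4 had an unadjusted p under 0.05, beside 12.2% of all tested genes. Their median log2 fold change was -0.03. The gene that fell was Sgpp2, a phosphatase that returns sphingosine 1-phosphate to sphingosine.

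Sgpp2 stood at -4.58, -4.70 and -4.18 in AhRCA, against -3.68, -3.25 and -3.18 in WT, without overlap. Its log2 fold change was -1.11 ± 0.20 (SE, limma, adjusted p = 0.0460), and it was well above background on 2 of 3 AhRCA arrays. The call was lost in 5 of 6 leave-one-out fits, all but that without WT 1 (up to 0.175), within slide 1 (0.0837) and after normexp (adjusted p = 0.178 for a log2 fold change of -0.35). It was also lost with no filter on dim probes and with every probe on its own (limma, adjusted p = 0.103 and 0.0710).

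By role, 0 of 8 tested genes of sphingoid base synthesis passed, and Ormdl3, a regulator of serine palmitoyltransferase, had the largest difference with -0.48 ± 0.16 (limma, adjusted p = 0.276). Sptlc1, a subunit of that enzyme, had 0.20 ± 0.19. Of 8 genes of ceramide use and transfer 0 passed, with -0.49 ± 0.18 for the sphingomyelin synthase Sgms2 (adjusted p = 0.331) and 0.14 ± 0.22 for Samd8. Abca12, the lipid transporter of lamellar bodies, had 0.00 ± 0.25 (chosen after its value was seen). Ugt8a, which adds galactose to ceramide, had 0 arrays with a signal well above background.

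Of 8 genes that break down glucosylceramide or sphingomyelin 0 passed, with -0.21 ± 0.17 for Galc, a galactosylceramidase, and -0.19 ± 0.14 for Smpd1, an acid sphingomyelinase. Among 10 ceramidases and genes of sphingosine 1-phosphate Sgpp2 was the only one to pass. Of 15 genes of acyl chains and acylceramide 0 passed, with -0.49 ± 0.16 for the elongase Elovl6 (limma, adjusted p = 0.246) and 0.18 ± 0.13 for Cyp4f39, the fatty acid omega-hydroxylase of acylceramides. Ormdl3, Sgms2 and Elovl6 were each lower in AhRCA in all 3 litter pairs, without overlap between the groups, and did not pass the threshold. Groups did not overlap in 6 of the 49 genes, all 6 lower in AhRCA, beside 8.84% of all tested genes.

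**Figure D3:**
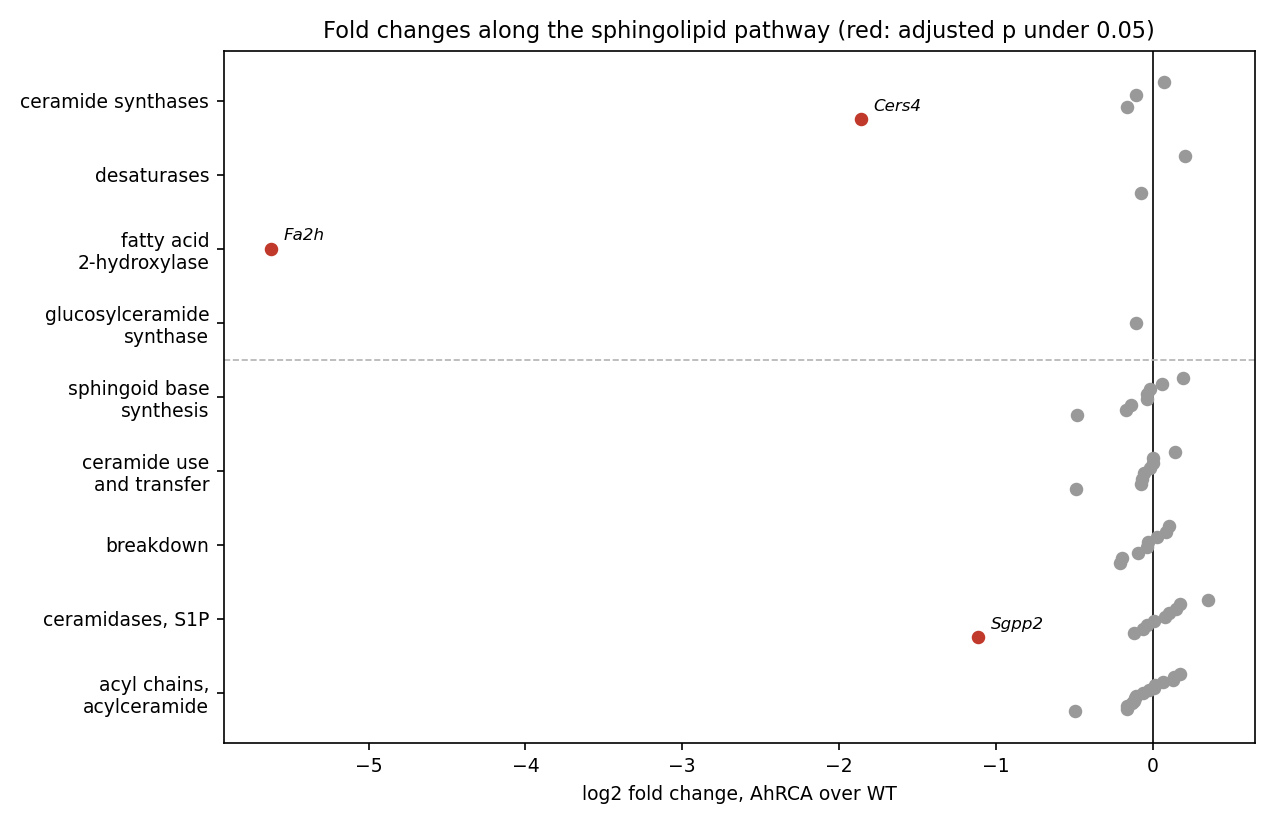
Log2 fold change of AhRCA over WT (horizontal axis) for the 8 measured genes of the set (above the dashed line) and the 49 tested genes of the rest of the pathway (below it), 1 point per gene, grouped by role; red points passed an adjusted p under 0.05. Fa2h, Cers4 and Sgpp2 are red, and the other genes of the pathway lie between -0.49 and 0.35.

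The genes whose values over the 6 arrays were most like those of Fa2h were Igfbp5, which binds insulin-like growth factors (Pearson r = 0.999), Pparg, a regulator of sebocyte and adipocyte differentiation (0.998), and Slc27a1, a fatty acid transport protein (0.997). Their log2 fold changes were -1.50, -1.85 and -0.61. Those most like Cers4 were Awat2, an acyltransferase of wax synthesis (r = 0.997), Bgn, a proteoglycan (0.997), and Lgr5, a marker of follicle stem cells (0.997). Their log2 fold changes were -1.17, -1.53 and -0.83. These values only describe the genes, since likeness to a gene that separates the genotypes fixes a difference between them, and the AhRCA signals of Fa2h were not well above background.

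**Figure D4:**
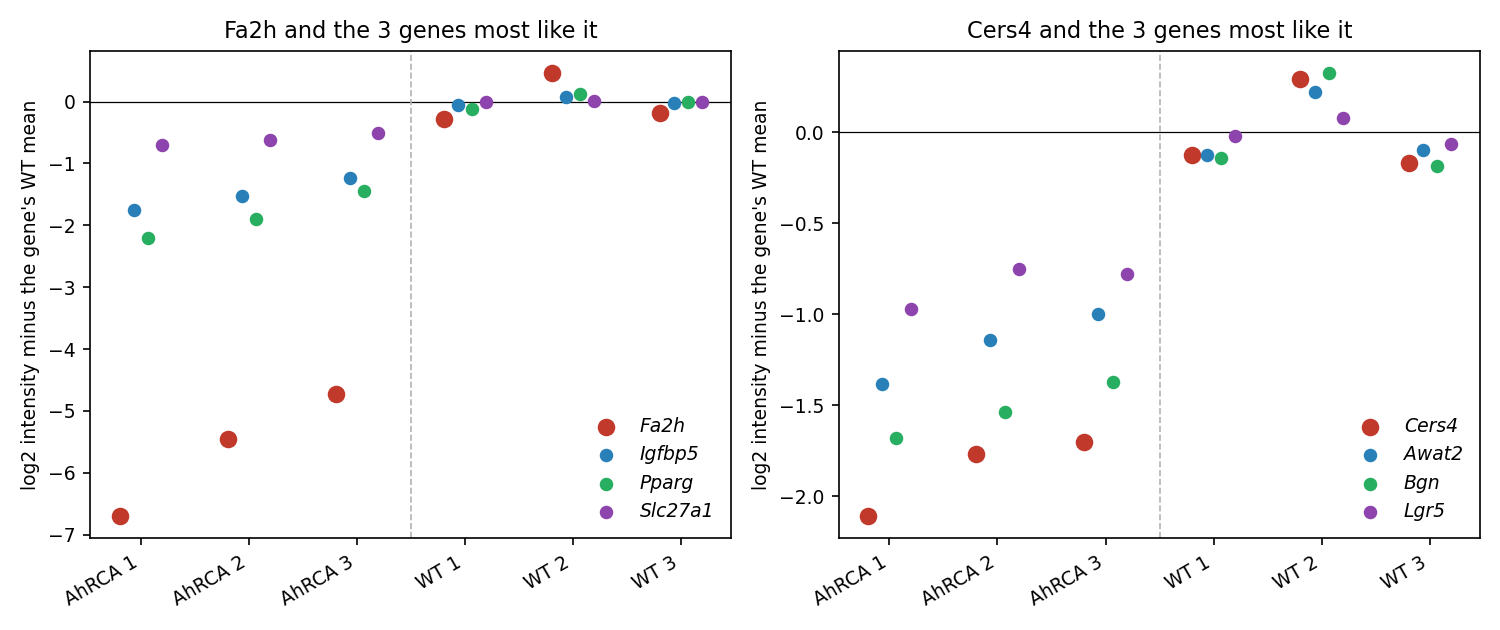
Normalized log2 intensity minus the gene's own WT mean (vertical axis) on each array (horizontal axis, AhRCA left of the dashed line and WT right of it) for Fa2h, Cers4 and the 3 genes most like each. All 8 genes lie below 0 on the 3 AhRCA arrays, which their choice fixes, Fa2h furthest, with AhRCA signals that were not well above background.

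Some markers of other skin compartments were also lower in AhRCA, most of them of the sebaceous gland. The marker lists were chosen with earlier results of these data known, so their counts describe the lists and are no test. Of 13 tested sebaceous gland markers 7 fell and 0 rose (limma), beside 1.65% of all tested genes that fell, and all 13 had log2 fold changes below 0, with a median of -1.14. They included Elovl3, an elongase (-3.57 ± 0.30, adjusted p = 0.00497, and -2.63 after normexp), Soat1, which esterifies cholesterol (-2.34 ± 0.16, adjusted p = 0.00196), Cidea, a lipid droplet protein (-2.19 ± 0.19, adjusted p = 0.00500), and Pparg (-1.85 ± 0.20, adjusted p = 0.0105). Pparg lost its call without AhRCA 2 or WT 2 (up to 0.0610). With the replicate block 9 of the 13 fell, beside 360 of all 12824 tested genes that fell (3.88% changed in either direction). The added genes were Krt79 (0.0317) and Scd3 (0.0251). The summed normalized intensity of the list, of which Dgat2 is the brightest member, was between 195 and 228 times the 75th percentile in AhRCA arrays and between 250 and 287 times in WT arrays. This sum is weighted to bright members, above all Dgat2 (-0.005 ± 0.13) and Krt79 (-0.63 ± 0.12, limma without the block, adjusted p = 0.0602). It does not describe the whole list. Mc5r, a receptor of sebocytes, had 0 arrays with a signal well above background.

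Of 14 tested hair follicle markers 2 fell, beside 1.65% of all tested genes. They were Lgr5 (-0.83 ± 0.11, limma, adjusted p = 0.0199) and Krt15 (-0.72 ± 0.13, adjusted p = 0.0460). The list ranged between -1.25 and 0.19 with a median of -0.30, and 10 of the 14 lay below 0. The summed intensity was between 451 and 520 times the 75th percentile in AhRCA and between 625 and 842 times in WT. This sum is weighted to bright members, above all Krt17 (-0.09 ± 0.17), Krt15 and Krt71 (-1.24 ± 0.32, adjusted p = 0.135), and does not describe the whole list. With the replicate block 4 of the 14 fell, beside 360 of all 12824 tested genes. Krt15 no longer passed (0.0534), and the keratins of the inner root sheath Krt25 (0.0378), Krt27 (0.0184) and Krt71 (0.0117) did. Lgr5 lost its call in 5 of 6 leave-one-out fits, all but that without WT 3 (up to 0.107). It also lost it within slide 1 (0.0716), with median scaling (0.0555) and with no filter on dim probes (0.0541). Krt15 lost its call in 5 of 6 leave-one-out fits, all but that without WT 1 (up to 0.194), within slide 1 (0.123), and with median or quantile scaling (0.0838 and 0.0626). The call of Krt15 was also lost with no filter on dim probes (0.103) and with every probe on its own. Of 4 tested adipocyte markers 1 fell, beside 1.65% of all tested genes: Plin4, a lipid droplet protein (-2.87 ± 0.34, limma, adjusted p = 0.0136). Plin4 was well above background on 1 of 3 AhRCA arrays, so this value rests in part on spots near background, and after normexp it was -1.33 (0.0279). That call was lost without AhRCA 1 or AhRCA 2 (up to 0.0627) and within slide 1 (0.0716). With the replicate block 2 of the 4 fell, Plin4 and Lpl, a lipoprotein lipase (0.0225), beside the same 360 of all tested genes. The summed intensity of the list, of which Fabp4 is the brightest member, was between 0.76 and 1.87 times the 75th percentile in AhRCA and between 1.64 and 2.94 times in WT. The list holds 9 adipocyte markers, and Adipoq, Plin1, Cfd and Cidec were well above background on 2 arrays each, so they were not tested. Lep, an adipocyte hormone, had 0 arrays with a signal well above background. Dgat2, Krt79, Scd3, Krt17, Krt25, Krt27, Krt71 and Lpl were named after their values were seen. The part of these compartments in the lower Fa2h and Cers4 signals was not tested.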

How the data were processed

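Epidermal RNA of 3 AhRCA and 3 WT newborn mice was read on 6 Agilent 1-colour arrays of 45018 spots each. Per the file headers, the deposited intensities come from Feature Extraction 10.7.3.1, which fitted and subtracted a spatial background surface on each array and did not scale between arrays. The median amount subtracted was between 47.9 and 54.8 and the median local background between 21.5 and 23. The authors also deposited a table of log2 values for 41267 probes; set against the scanner values its differences had a slope of 1, so its scale is log2 and its direction that of the intensities. Each probe in it is centred on its median over the arrays, and the array scaling lies within 0.007 of the 75th percentile used here. Its column medians were 0.0283, 0.0638 and -0.071 for AhRCA 1 to 3 and -0.0705, -0.0495 and 0.0827 for WT 1 to 3, and what else was done to make it is not given in the sources used here.

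The log2 of the processed intensity was centred per array on its 75th percentile, without control spots (1639) or outlier spots (56 to 94 per array), and repeated spots were averaged. Of 41174 probes 26690 matched 1 symbol through unversioned RefSeq accessions in a table of GRCm38.p6. Probes well above background on at least 3 arrays were kept (24005), and the brightest kept probe stood for its gene. AhRCA was compared with WT by limma 3.58.1 in R 4.3.3 (lmFit with a mean per genotype, then eBayes, whose prior had 2.625 degrees of freedom), two-sided, with Benjamini-Hochberg adjustment over 12824 genes, a threshold of 0.05 and 95% intervals from the moderated fit; the procedure was tested on simulated data. A bound sets the WT mean against, per array, the probe's own value or, if that is lower, the dimmest signal called well above background. For normexp (offset 50) the median spot signal was used, as the files hold no mean signal. Replicates are separate animals. Per the series' design text each of 3 samplings took 1 AhRCA mouse and 1 WT littermate; the labels number replicates without naming the sampling. Numbers were taken as pairs because same-numbered arrays within slide 1 correlated in their deviations from the group means (0.337 and 0.372 over 12821 genes). Other pairs of arrays within slide 1 had 0.194 and 0.15. AhRCA 3 and WT 3 had 0.55, which cannot decide on litter because slide and sex set both apart from the other arrays. Values across slides were -0.416 to -0.356. They cannot decide either, since deviations cancel within a group, which ties these values to the others. The replicate block, the slide block and 15 other settings were alternatives.

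The members, pathway lists and marker lists were chosen with earlier results of these data known. Named are all members, pathway genes past the threshold or else the 2 with the largest change per role, 3 AhR-induced genes, up to 4 called markers per list, and the 3 genes most like each called member.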

Additional observations from a re-analysis of the deposited data

How the results depend on the processing

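Cers4 kept its direction and its call in every setting, and Fa2h did so in every setting in which it was fitted. Under the filter that asks for all 6 arrays Fa2h was not tested, so that 1 member changed instead of 2. The filter on dim probes was not redone within slide 1 or without 1 array. Fa2h met it through the WT arrays alone and would not meet it within slide 1 or without a WT array. Those fits therefore do not test whether its call is stable. Over the settings other than leaving out an array the log2 fold change of Fa2h lay between -6.17 and -2.91 and that of Cers4 between -2.02 and -1.74; over the leave-one-out fits they lay between -6.07 and -5.09 and between -1.94 and -1.71. The replicate block changed no member's call and left the pathway count at 1.

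The 279 genes changed in all became 497 with the replicate block, 539 with the slide block, 130 within slide 1 and 132 with no filter on dim probes, and between 62 and 195 without 1 array (104, 71 and 151 when AhRCA 1, 2 or 3 was left out, and 62 and 185 when WT 2 or WT 3 was). The pathway count of 1, Sgpp2, became 0 with normexp background correction, with the filter asking for all 6 arrays, with no filter, within slide 1 and with every probe on its own, and was 0 to 1 without 1 array; the cause was not tested. Of the members that did not pass, Ugcg had 0.061 with the mean of its probes and 0.023 within slide 1, and Degs2 had 0.089 within slide 1. Without 1 array Degs2 ranged between -0.38 and 0.12 and Cers6 between -0.43 and 0.11. Samd8 had -0.098 with normexp, -0.071 with the mean of its probes and between -0.089 and 0.34 without 1 array. Signal over background limits Fa2h in AhRCA and Cers6 in both genotypes.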

Other observations

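Sphingolipid enzymes of this set are also known from myelin, and markers of Schwann cells and nerve were read for that reason. Of 8 tested, 0 passed (limma, Benjamini-Hochberg; 2 at an unadjusted p under 0.05), the median log2 fold change was -0.15 and the summed normalized intensity was between 11.4 and 11.9 times the 75th percentile in AhRCA and between 11.2 and 13.4 times in WT. Of 4 tested melanocyte markers and 6 tested fibroblast markers 0 passed (0 and 1 at an unadjusted p under 0.05), and 0 of 5 endothelial markers was well above background on 3 arrays. Among 6 tested immune cell markers 1 passed, beside 2.18% of all tested genes that changed in either direction. It was Cd207, the langerin gene (fitted log2 fold change -2.59, limma, adjusted p = 0.0206), with a bound of at least 3.09-fold less signal in AhRCA. It was well above background on 0 of 3 AhRCA arrays and met the filter through the WT arrays alone, and after normexp its log2 fold change was -0.75 (0.0448), less than that bound. That call was lost with no filter on dim probes (0.0538) and in 4 of 6 leave-one-out fits, those without AhRCA 1, AhRCA 2, WT 1 or WT 2 (up to 0.0879). With the replicate block 3 of the 6 fell, beside 360 of all 12824 tested genes that fell. They were Cd207 and, named after their values were seen, the MHC class II chain H2-Ab1 (0.0237) and its invariant chain Cd74 (0.0114). Without the block H2-Ab1 and Cd74 did not pass (limma, adjusted p = 0.227 and 0.182). Of the 6 markers 4 had log2 fold changes below 0. Ptprc was higher in AhRCA without overlap and did not pass (0.40 ± 0.16, adjusted p = 0.385), and Itgax had 0.01 ± 0.32. Both were also named after their values were seen.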
